A study of Mus musculus with 9 samples.

Results

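Voltage-gated sodium and calcium channels and the potassium channels were read in enteric glia of the mouse small intestine, in culture, after LPS and directly after sorting. All probes whose platform symbol begins with Scn and a subunit number, with Cacna, Cacnb or Cacng, or with Kcn were taken, which gave 164 probes of 108 genes among the 25697 probes of the array. Pore-forming subunits are included together with the accessory subunits that carry the same name stems. The rule itself reads the symbol and no measured value.

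RNA of 9 samples was hybridized to Illumina mouse bead arrays, 3 per group. All cells came from FVB mice that carry hGFAP-eGFP, at postnatal day 7, and were sorted for eGFP from the small intestinal longitudinal muscle with its myenteric plexus, with 1 litter per replicate. The in vivo group went from the sorter into lysis buffer. The in vitro group (untreated gliospheres) and the in vitro_LPS group (LPS-stimulated gliospheres) were expanded with bFGF and EGF under low oxygen, passaged into spheroids and kept for 48 h without or with LPS at 100 µg/ml. Each preparation was split between both conditions, and gliosphere samples with the same replicate number were read as coming from 1 preparation, which the labels do not state outright. The sort rests on a transgene driven by the human GFAP promoter, so the cells are defined by that promoter and not by a surface marker. Values are group means over all cells of a sample, and fewer cells of a type and less RNA per cell cannot be told apart.

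Voltage-gated sodium and calcium channels open when the membrane depolarizes and carry the action potential, transmitter release and calcium entry of excitable cells. Potassium channels set the resting potential and end excitation, and two-pore-domain and inward rectifier channels give glia their high resting potassium conductance. In the gut wall, enteric neurons, smooth muscle cells and glia each use a part of this repertoire.

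The label of the sorted cells was checked against marker genes. Of 5 tested enteric glial markers, Ngfr and Entpd2 were above background on all 9 arrays and S100b on 3 untreated, 2 LPS and 2 in vivo arrays, and these 3 did not differ past the test between in vivo and untreated samples. Gfap was above background on all 6 gliosphere arrays and on 0 of 3 in vivo arrays and was at least 9.69-fold lower in vivo (adjusted p = 0.000164). Fabp7, a lipid-binding protein of glial progenitors, was detected on 2 in vivo arrays only and was at least 1.37-fold higher (adjusted p = 0.0168). Neuronal markers were present in every group (11, 12 and 15 of 17 on all 3 arrays in untreated, LPS-stimulated and in vivo samples), and 10 of the 15 tested were higher in vivo than in untreated gliospheres, among them Chat, Prph and Nefm, with 0 lower. The summed normalized signal of the neuronal list was 37990 to 48060 in untreated gliospheres, 40490 to 46910 after LPS and 92150 to 99410 in vivo. That of the smooth muscle list was 3648 to 6861, 2326 to 3310 and 9732 to 27130, with 3 of 7 tested markers higher in vivo (Myh11, Des, Actg2) and Cnn1 and Lmod1 on no array. The in vivo arrays differed in this list, with 27130, 17040 and 9732 on in vivo arrays 1, 2 and 3. Of all 14795 tested probes 11.9% were higher in vivo than in untreated gliospheres and 13.1% lower. Replicates correlated at 0.975 to 0.98 within the gliosphere groups and at 0.898 to 0.962 in vivo, where array 1 had the lowest correlations. How far neuronal or muscle RNA enters the in vivo channel signals was not tested.

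**Figure D1:**
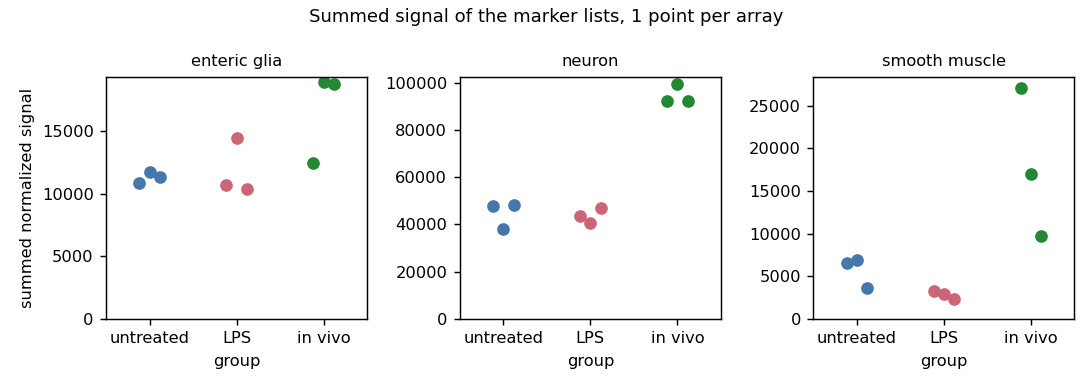
Summed normalized signal (vertical axis) of the enteric glial, neuronal and smooth muscle marker lists, 1 point per array, for the 3 groups on the horizontal axis. The neuronal sums reach 92150 to 99410 in vivo against at most 48060 in gliospheres, and the smooth muscle sums spread from 9732 to 27130 in vivo.

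Few channel transcripts were read above background in any group. A probe counts as detected on an array at a detection p of 0.05 or less. Of the 164 probes, 74 were detected on no array, 26 on all 9, and 90 probes of 74 genes on at least 1. In untreated gliospheres 43 probes (26.2%, 35 genes) were detected on all 3 arrays, in LPS-stimulated gliospheres 34 (20.7%, 28 genes) and in vivo 45 (27.4%, 38 genes). Of all probes with a symbol, 45, 44.7 and 42.7% reached this in the same order of groups.

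The number of detected channel probes per array was 47, 53 and 48 in untreated gliospheres, 48, 40 and 45 after LPS, and 64, 69 and 56 in vivo. All in vivo arrays lay above all gliosphere arrays, and the gliosphere groups overlapped. Over all probes with a symbol the detected share was 49.4, 48.2 and 49.4% in untreated gliospheres, 49, 47.5 and 49.2% after LPS and 50.7, 49.6 and 47.1% in vivo, so these groups overlapped. The mean was higher by 13.7 in vivo than in untreated gliospheres (exact two-sided permutation test, p = 0.1, the smallest that 3 against 3 arrays allow), higher by 18.7 than after LPS (exact p = 0.1), and differed by -5 between LPS-stimulated and untreated gliospheres (exact p = 0.3). Since the counts on all 3 arrays were nearly alike in vivo and in untreated gliospheres, the additional probes in vivo were mostly seen on 1 or 2 arrays: 19 probes were detected on no gliosphere array and on 1 or 2 in vivo arrays, and 4 (Cacna1g, Cacna2d3, Kcna5, Kcnk1) on no gliosphere array and on all 3 in vivo arrays.

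**Figure D2:**
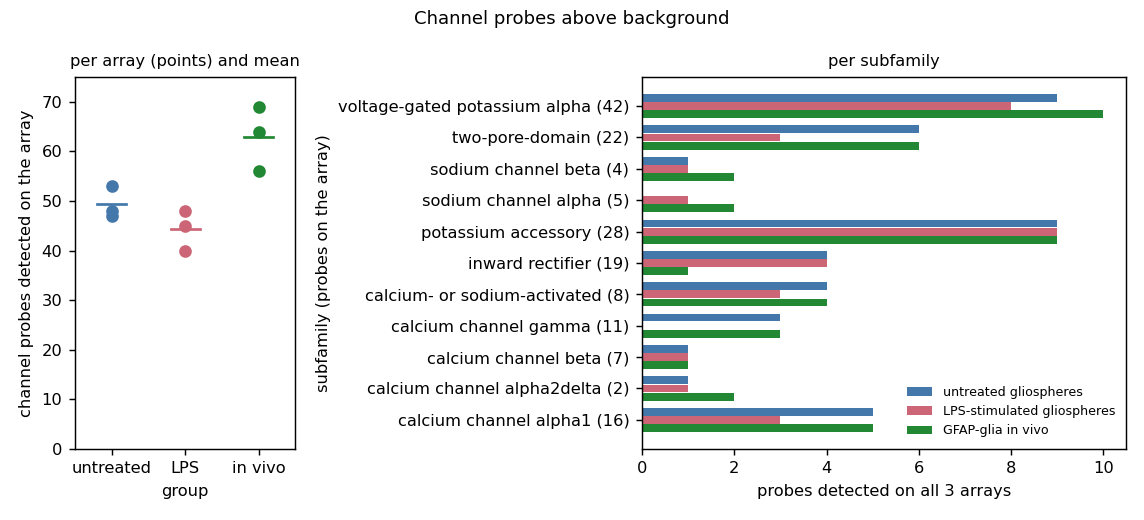
Left, number of channel probes detected on each array (points) with the group mean (line). Right, probes detected on all 3 arrays of a group by subfamily, with the number of probes on the array in brackets. The in vivo arrays hold 56 to 69 detected probes and the gliosphere arrays 40 to 53, while inward rectifier probes on all 3 arrays number 1 in vivo and 4 in either gliosphere group.

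Genes of known glial or neuronal use that the arrays carry but did not detect on any array include Kcnj8, Kcnn4, Kcnd3 and Kcnip4.

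The comparison of GFAP-glia in vivo with untreated gliospheres asks which channel genes differ between cells taken from the tissue and cells kept in culture. Of the 90 tested channel probes 42 passed the test, 31 higher (29 genes) and 11 lower (8 genes) in vivo (limma, adjusted p under 0.05). Over all 14795 tested probes 25% passed, 11.9% higher and 13.1% lower. The share of channel probes higher was 34.4% and the share lower 12.2%, and their median difference was 0.57 on the log2 scale against -0.09 over all probes. A probe enters the test if it was detected on at least 1 of 9 arrays, so probes that are high in 1 group only are included by that group. The values of all 42 lay apart between both groups, as did 99.3% of all probes past this test. Among probes detected on all 9 arrays, which no single group brings into the test, 10 of 26 channel probes were higher and 7 lower, against 9.24% and 14.3% of all 9292 such probes. Of the 31 higher probes 10 were detected on all 9 arrays and 16 on no untreated array, and of the 11 lower probes 7 were detected on all 9 arrays.

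**Figure D3:**
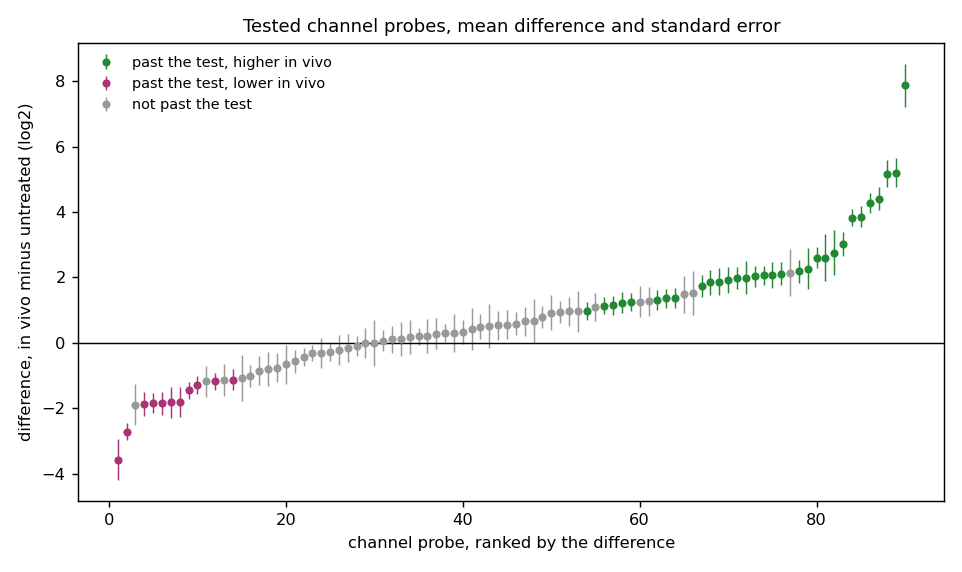
Difference between in vivo and untreated means (log2, vertical axis) with its standard error for the 90 tested channel probes in rank order. Green points passed the test as higher (31), purple as lower (11) and grey did not pass (48 probes). The fitted values run from -3.57 to 7.88, and those of probes below background in a group are no measured folds.

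Promoters of Scn11a, Kcna5, Kcnh1 and Cacna2d3, which had the highest lower bounds of the fold between in vivo and untreated samples, and of Kcnd2, which was lower after LPS and higher in vivo than in untreated gliospheres, are shown to set their base composition side by side. They are RefSeq sequences of build GRCm38.p6, from 250 bases before to 50 bases after the annotated start, written 5′ to 3′ on the gene's strand. Capitals mark the GC box GGGCGG on either strand, with overlapping matches counted.
Scn11a, chr9:119825407-119825706, minus strand: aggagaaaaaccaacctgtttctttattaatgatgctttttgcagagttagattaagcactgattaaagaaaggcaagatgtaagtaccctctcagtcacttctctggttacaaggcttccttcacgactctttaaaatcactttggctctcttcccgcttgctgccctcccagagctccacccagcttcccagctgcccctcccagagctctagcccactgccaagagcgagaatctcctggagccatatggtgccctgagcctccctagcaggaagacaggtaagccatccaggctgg
Kcna5, chr6:126535506-126535805, minus strand: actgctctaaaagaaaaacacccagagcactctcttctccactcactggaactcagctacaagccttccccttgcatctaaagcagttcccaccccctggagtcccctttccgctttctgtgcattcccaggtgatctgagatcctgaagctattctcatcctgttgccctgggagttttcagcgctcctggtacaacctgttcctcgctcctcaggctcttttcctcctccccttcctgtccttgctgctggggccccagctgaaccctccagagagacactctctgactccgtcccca
Kcnh1, chr1:192190527-192190826, plus strand: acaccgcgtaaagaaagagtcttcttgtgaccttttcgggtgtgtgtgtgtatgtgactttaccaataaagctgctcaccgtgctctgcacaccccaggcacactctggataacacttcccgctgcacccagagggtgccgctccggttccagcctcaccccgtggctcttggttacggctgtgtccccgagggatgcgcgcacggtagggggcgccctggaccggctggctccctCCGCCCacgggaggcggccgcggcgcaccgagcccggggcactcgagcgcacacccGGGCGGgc
Cacna2d3, chr14:29721815-29722114, minus strand: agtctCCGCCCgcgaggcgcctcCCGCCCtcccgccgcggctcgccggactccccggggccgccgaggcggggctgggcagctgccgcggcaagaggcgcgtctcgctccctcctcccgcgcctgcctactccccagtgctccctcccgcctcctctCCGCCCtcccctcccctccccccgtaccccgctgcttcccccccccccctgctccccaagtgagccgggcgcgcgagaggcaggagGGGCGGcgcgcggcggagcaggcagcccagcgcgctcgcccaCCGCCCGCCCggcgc
Kcnd2, chr6:21215096-21215395, plus strand: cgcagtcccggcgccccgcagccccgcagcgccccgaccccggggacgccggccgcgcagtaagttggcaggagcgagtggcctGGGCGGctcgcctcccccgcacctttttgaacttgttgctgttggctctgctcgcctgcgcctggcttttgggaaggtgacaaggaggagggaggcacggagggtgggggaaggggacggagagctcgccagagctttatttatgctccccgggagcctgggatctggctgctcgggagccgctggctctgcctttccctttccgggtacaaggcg

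The G and C content of these windows was 50.3% for Scn11a, 55% for Kcna5, 66% for Kcnh1, 81.3% for Cacna2d3 and 68.7% for Kcnd2. Scn11a and Kcna5 held 0 GC boxes, Kcnh1 held 2, Cacna2d3 held 6 and Kcnd2 held 1. These genes, all higher in vivo, had windows with and without this motif. Of 108 channel genes 84 had a promoter in the table. A GC box was found in 12 of the 32 promoters of members higher in vivo (37.5%) and in 6 of the 9 of members lower in vivo (66.7%). The share was 54 of 115 promoters over all channel genes (47%) and 35.7% of all 32851 promoters. The letters TATAAA, on either strand, were found in 0 of the 32 and in 1 of the 9. Their share was 5 of the 115 promoters of all channel genes (4.35%) and 13.6% of all promoters. These shares are descriptions, and nothing follows from them about a binding factor.

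The voltage-gated sodium channels held the highest difference. Scn11a encodes a sodium channel of sensory and enteric neurons that carries a persistent current and resists tetrodotoxin. Its normalized log2 signal was 4.46, 4.02 and 4.49 in untreated gliospheres, 5.45, 2.61 and 4.38 after LPS, and 11.33, 12.77 and 12.49 in vivo. Detection was reached on 0 untreated arrays, 1 LPS array and all in vivo arrays, and the level was at least 174-fold higher in vivo than in untreated gliospheres (adjusted p = 5.93e-05, limma). Such a bound sets the bright group's mean against the lowest level that counts as detected, since the dim group was not well above background on any array. The bound depends on the normalization, and for Scn11a it was 144-fold with quantile normalization, 89-fold without background correction and 28.7-fold with the authors' normalized values.

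Scn7a, a sodium-sensing channel known from Schwann cells and some central glia, was detected on 1 untreated, 3 LPS and 3 in vivo arrays. Untreated gliospheres gave 2.91, 5.99 and 3.79, LPS-stimulated gliospheres 5.17, 6.19 and 5.19, and in vivo samples 6.92, 6.67 and 7.35. The difference between in vivo and untreated was 2.75 ± 0.69 (log2, SE, adjusted p = 0.0183), and untreated array 2 lay apart from the other two. The call was lost without untreated replicate 1 or 3 or in vivo replicate 3 (adjusted p up to 0.0648). Scn1a and Scn8a, both channels of neuronal axons, passed the test as higher (adjusted p under 0.05) from signals that were detected on 0 gliosphere arrays and on 2 in vivo arrays, so that no fold is given. They entered the test only through the in vivo group. Scn8a did not pass without untreated replicate 2 (adjusted p = 0.0567) or with the authors' normalized values (0.142). Scn10a, the other tetrodotoxin-resistant channel of sensory neurons, was detected on 1 LPS array only and did not pass (adjusted p = 0.411).

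Beta subunits modulate gating and surface expression of the alpha subunits. Scn2b read 4.43, 5.06 and 5.13 in untreated gliospheres, 4.63, 3.85 and 4.61 after LPS and 9.01, 9.13 and 9.31 in vivo, a difference of 4.28 ± 0.3 from untreated (adjusted p = 2.34e-05). The untreated signals lay near background, and over the alternative settings this difference ran from 2.05 to 4.41. All in vivo arrays lay above all gliosphere arrays by a wide gap. The other 3 beta probes, of Scn3b and Scn4b, did not pass. The main Scn3b probe was detected on all 9 arrays, at 6.99 to 8.41 in vivo and 7.29 to 7.78 in untreated gliospheres.

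Among calcium channel pores the T-type genes stood out. T-type channels open at small depolarizations. Cacna1g read 3.48, 2.5 and 3.1 in untreated gliospheres, 3.41, 2.85 and 3.23 after LPS and 7.11, 7.17 and 6.36 in vivo. It was not well above background on any gliosphere array and was at least 4.35-fold higher in vivo than untreated (adjusted p = 7.4e-05) and at least 4.17-fold higher than after LPS. With the authors' normalized values these bounds were 1.54-fold and 1.53-fold. Its 2 further probes were on no array. Cacna1h, the second T-type gene, was detected on all 9 arrays and was higher in vivo by 0.98 ± 0.28 (adjusted p = 0.0296), with 9.23 to 9.96 in untreated gliospheres and 10.43 to 10.9 in vivo. That call was lost without any single untreated array and without in vivo replicate 2 or 3 (adjusted p up to 0.104).

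The high-voltage-activated pores showed no difference past the test between in vivo and untreated samples. Cacna1c, the L-type pore of muscle and many other cells, differed by 0.07 ± 0.32, Cacna1d by 0.58 ± 0.35 and Cacna1a, a presynaptic pore, by -0.27 ± 0.28. Their tested probes lay near the lowest detected level and were detected on 8, 3 and 6 of 9 arrays in this order. The further Cacna1c and Cacna1d probes were detected on no array. Cacna1b, the N-type pore of enteric and other nerve endings, had 3 tested probes, none past this test. These probes did not share their level pattern. The third was detected on 2 LPS arrays only and was lower in vivo than after LPS (adjusted p = 0.00165), whereas the others were detected on all 9 arrays and differed by -0.25 and -0.02 in that comparison.

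Of the accessory calcium channel subunits, Cacna2d3 had the larger difference. Alpha2delta subunits traffic calcium channels to the membrane. It read 3.73, 2.81 and 4.14 in untreated gliospheres, 3.38, 3.88 and 3.96 after LPS and 8.04, 7.94 and 7.95 in vivo, at least 9.27-fold higher than untreated (adjusted p = 4.08e-05), or at least 2.32-fold with the authors' normalized values. Cacna2d1, the gabapentin-binding subunit, was detected on all arrays and differed by -0.3 ± 0.25 (adjusted p = 0.407), with 11.67 to 12.14 in untreated gliospheres and 11.28 to 11.87 in vivo. Cacnb4 was higher by 1.36 ± 0.28 (adjusted p = 0.0075). Cacnb1, detected on 2 in vivo arrays only, missed the threshold (adjusted p = 0.0671).

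Gamma subunits of the Cacng3, Cacng4 and Cacng5 kind also accompany AMPA receptors. Both tested Cacng5 probes were higher in vivo, by 2.61 ± 0.73 and 2.27 ± 0.62 (adjusted p = 0.0292 and 0.0262), and a further Cacng5 probe was detected on no array. The call of the first was lost without any single untreated or in vivo array (adjusted p up to 0.101), and that of the second without replicate 1 or 2 of the untreated or replicate 2 or 3 of the in vivo group (adjusted p up to 0.0987). The LPS arrays spread from 3.85 to 6.92 on the first. Cacng3, detected on 2 in vivo arrays only, and Cacng4 did not pass against untreated gliospheres (adjusted p = 0.0571 and 0.134) and were higher in vivo than after LPS (adjusted p = 0.0161 and 0.00872).

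Of 24 tested probes of voltage-gated potassium pores 8 were higher and 2 lower in vivo than in untreated gliospheres. Over all tested probes 11.9% were higher and 13.1% lower. Kcna5, a delayed rectifier of smooth muscle, heart and glia, read 3.94, 2.55 and 3.21 in untreated gliospheres, 4.7, 4.59 and 4.24 after LPS and 7.74, 8.92 and 8.54 in vivo, at least 12.5-fold higher than untreated (adjusted p = 4.5e-05) and at least 11.9-fold higher than after LPS. With the authors' normalized values these bounds were 2.83-fold and 2.81-fold. Kcnh1, of the ether-à-go-go family of neurons and dividing cells, read 4.35, 3.48 and 4.11, then 5.76, 7.3 and 7.31, then 8.91, 9.22 and 9.41 in the same order of groups, so that the 3 groups did not overlap. It was at least 21.4-fold higher in vivo than untreated (adjusted p = 6.14e-05), or at least 4.26-fold with the authors' normalized values.

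Kcnd2, a pore of the transient A-type current, was detected on all untreated and in vivo arrays and on 0 LPS arrays. Its values were 6.25, 6.12 and 6.55 untreated, 4.13, 4.52 and 3.98 after LPS, and 9.2, 8.08 and 7.98 in vivo, with a difference of 2.11 ± 0.35 between in vivo and untreated (adjusted p = 0.00249). Again the 3 groups did not overlap. Over all tested probes 41.1% lay apart between in vivo and untreated, 43.7% between in vivo and LPS, and 19.2% between the gliosphere groups. The share apart in all 3 groups was not counted. Kcnh2, the ether-à-go-go-related gene that repolarizes heart and smooth muscle, had 2 probes on all 9 arrays that were both higher in vivo (1.15 and 1.74), and a further probe, detected on 2 LPS arrays only, that did not pass (adjusted p = 0.295). The smaller Kcnh2 difference did not pass without any single untreated array or without in vivo replicate 2 or 3 (adjusted p up to 0.073). Kcng4, a subunit that forms no channel alone, Kcns2, of the same kind, and Kcnh3 passed as higher from signals below background on all gliosphere arrays and detected on 2, 1 and 1 in vivo arrays. Kcnh3 (adjusted p = 0.0193) did not pass without untreated replicate 2 or 3 (adjusted p up to 0.0699), nor with quantile normalization, the authors' normalized values or only the 2 groups compared (up to 0.0821). Kcns2 (adjusted p = 0.0107) did not pass with the authors' normalized values (0.14), and a detection limit of 0.01 left Kcng4 and Kcns2 untested.

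Kcna2, a pore of the juxtaparanodal axon membrane, and Kcnc1, which serves fast-firing neurons, were the lower ones. Kcna2 read 5.69, 5.91 and 6.02 in untreated gliospheres and 4.37, 4.53 and 3.1 in vivo, where it was detected on 0 arrays, and was at least 2.01-fold lower there (adjusted p = 0.00643). Kcnc1 was lower by -1.18 ± 0.26 (adjusted p = 0.0108), at 10.61 to 11.23 untreated and 9.41 to 10.06 in vivo. Kcna1 and Kcnq3, both of neuronal axons, did not pass (0.52 ± 0.67 and -0.85 ± 0.45).

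**Figure D4:**
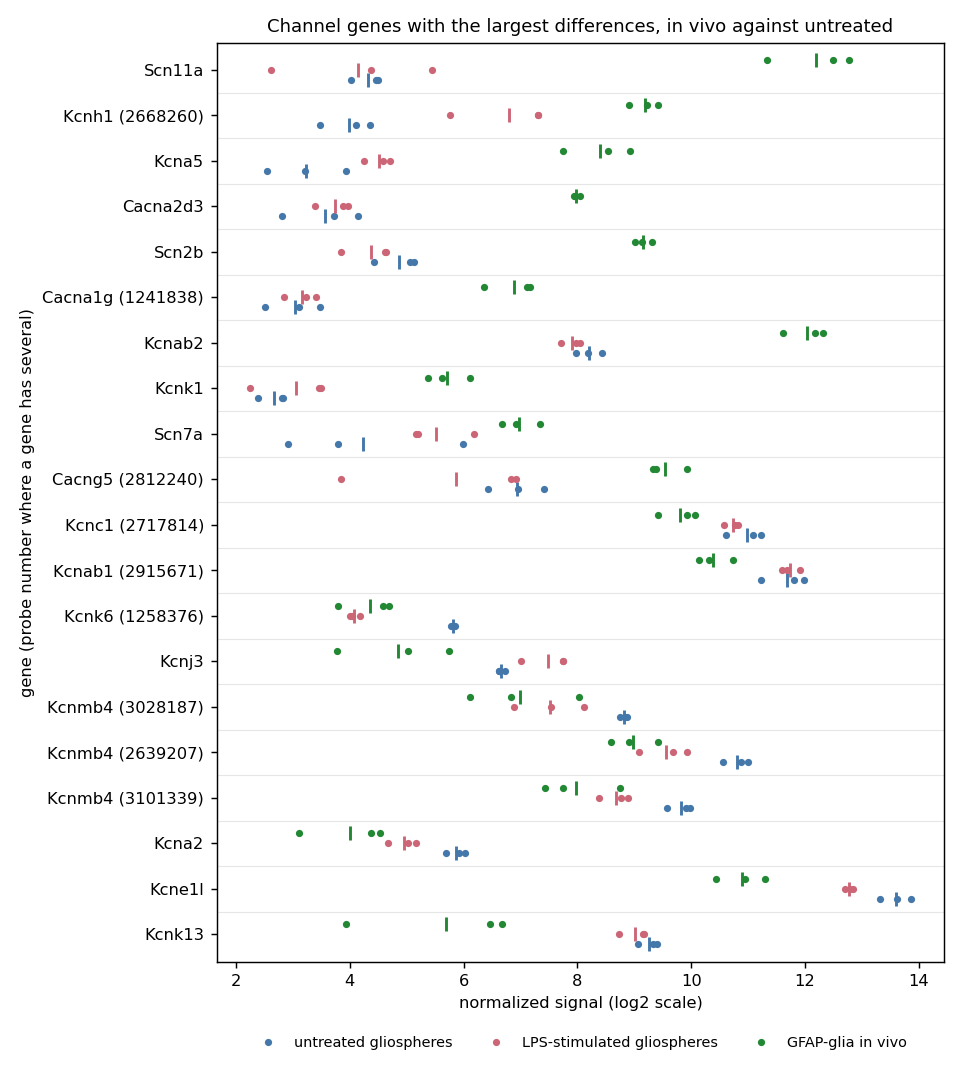
Normalized signal (log2 scale, horizontal axis) on each of the 9 arrays for the 10 channel probes with the highest and the 10 with the lowest difference between in vivo and untreated gliospheres. Points are arrays and vertical ticks are group means. The fitted differences run from 7.88 for Scn11a at the top to -3.57 for Kcnk13 at the bottom. The probes were taken from those past the test whose in vivo and untreated arrays did not overlap. The missing overlap is therefore a condition of the choice and no result.

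Of 15 tested probes of potassium accessory subunits 6 were lower and 2 higher, against 13.1% lower and 11.9% higher over all tested probes. The lower ones repeat genes. They were 3 probes of Kcnmb4, 2 of Kcnab1 and that of Kcne1l, and the higher ones were of Kcnab2 and Kcnrg. The Kcnrg probe kept its call under 15 of 18 alternatives. Kcnab2, a cytoplasmic beta subunit of voltage-gated channels in neurons, read 7.98, 8.19 and 8.44 untreated, 7.98, 8.05 and 7.71 after LPS and 12.32, 11.61 and 12.17 in vivo, a difference of 3.83 ± 0.26 (adjusted p = 2.09e-05). Its relative Kcnab1 moved the other way on 2 probes that were detected on all arrays, by -1.28 ± 0.27 and -1.13 ± 0.32 (adjusted p = 0.00913 and 0.0306). The remaining Kcnab1 probe differed by 0.42 ± 0.65 and had 4.4 to 7.41 in vivo. The smaller of the 2 lower Kcnab1 differences was lost without untreated replicate 1 or 3, LPS replicate 2 or in vivo replicate 1 or 2 (adjusted p up to 0.112).

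Kcne1l, an X-linked member of the single-pass Kcne subunits, was detected on all arrays. Its values were 13.62, 13.87 and 13.32 untreated, 12.79, 12.7 and 12.84 after LPS and 10.44, 11.29 and 10.94 in vivo. It was lower in vivo by -2.71 ± 0.27 (adjusted p = 0.000162) and the 3 groups did not overlap. Kcnmb4, the neuronal beta subunit of the large-conductance calcium-activated channel, was lower in vivo on all 3 of its tested probes, by -1.84 ± 0.31, -1.84 ± 0.35 and -1.82 ± 0.48. The third of these lost its call without any single untreated array or in vivo replicate 2 or 3 (adjusted p up to 0.0701). The same probes differed by -1.25, -1.14 and -1.3 between LPS-stimulated and untreated gliospheres without passing that test (adjusted p = 0.152, 0.308 and 0.486).

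The pore that Kcnmb4 accompanies, Kcnma1, moved in the opposite direction. It read 8.2, 7.55 and 7.87 in untreated gliospheres, 7.67, 6.86 and 7.11 after LPS and 10.1, 10.01 and 9.68 in vivo, and was higher in vivo by 2.06 ± 0.29 (adjusted p = 0.00105). Kcnmb1, the beta subunit of smooth muscle, was detected on 1 in vivo array and did not pass (adjusted p = 0.311). The sodium-activated Kcnt1 and the small-conductance Kcnn3 (adjusted p = 0.0139 and 0.00716) passed as higher while detected on 2 and 1 in vivo arrays and on 0 gliosphere arrays. Kcnt1 did not pass without untreated replicate 3 (adjusted p = 0.0574). Neither passed with the authors' normalized values (adjusted p = 0.136 and 0.0562), and a detection limit of 0.01 left both untested. Kcnu1, a relative of Kcnma1 known from sperm, was detected on all 9 arrays and was higher by 1.23 ± 0.32 (adjusted p = 0.0209), a call lost without untreated replicate 2 or 3 or in vivo replicate 2 (adjusted p up to 0.0835). Of 6 tested probes of calcium- or sodium-activated pores 4 were higher and 0 lower, against 11.9% and 13.1% of all tested probes.

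The two-pore-domain channels carry the background potassium conductance. Kcnk13, a channel of microglia in the brain, had the lowest difference of all channel probes. It read 9.4, 9.07 and 9.33 untreated, 9.17, 9.16 and 8.73 after LPS, and 3.93, 6.68 and 6.46 in vivo. It was lower in vivo by -3.57 ± 0.62 (adjusted p = 0.00348), and in vivo array 1, on which it was not detected, lay below the other two. Kcnk1, a weak inward rectifier of this class found in astrocytes, was detected on all in vivo and 0 gliosphere arrays, at 6.11, 5.62 and 5.37 in vivo, and was at least 1.91-fold higher than untreated (adjusted p = 0.000501).

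The mechanosensitive Kcnk2 and the acid-sensitive Kcnk3 were detected on all 9 arrays and were higher in vivo by 1.92 ± 0.4 and 1.87 ± 0.42 (adjusted p = 0.00809 and 0.0113). For Kcnk10, a relative of Kcnk2, the in vivo level exceeded the untreated by at least 2.32-fold (adjusted p = 0.00201). A Kcnk4 probe passed as higher (adjusted p = 0.0055) from signals below background on all gliosphere arrays. It entered the test only through the in vivo group. Its bound was 1.26-fold, or 1.05-fold with the authors' normalized values, and a detection limit of 0.01 left it untested. Kcnk6 was detected on all untreated arrays and on 0 in vivo arrays and was at least 1.92-fold lower (adjusted p = 0.0041). The 3 Kcnk5 probes, of an alkali-sensitive channel, did not pass between in vivo and untreated (0.11, 0.13 and 0.78). Of 12 tested probes 5 were higher and 2 lower, against 11.9% and 13.1% of all tested probes.

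Inward rectifiers were rarely above background. Of 19 probes 4 were detected on all 3 arrays in untreated and LPS-stimulated gliospheres and 1 in vivo. That 1 was Kcnj12, a strong inward rectifier of muscle and neurons, which read 7.26, 6.42 and 7.14 untreated, 7.14, 6.48 and 7.46 after LPS and 8.81, 9.2 and 8.91 in vivo, higher by 2.03 ± 0.33 (adjusted p = 0.00227). Kcnj3, a subunit of the G-protein-gated channel, was the lower one, at 6.62, 6.63 and 6.72 untreated, 7, 7.74 and 7.74 after LPS and 5.75, 5.02 and 3.77 in vivo (-1.81 ± 0.46, adjusted p = 0.0191). That call was lost without any single untreated array (adjusted p up to 0.0595). Kcnj16, which forms glial channels together with Kcnj10, was detected on 1 in vivo array. Kcnj4 differed by -0.56 ± 0.35.

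Genes that work with these channels were read beside them. Over all 14795 tested probes 11.9% were higher in vivo than in untreated gliospheres and 13.1% lower. The lists below were chosen with earlier results of these data known. Of 25 tested channel partners 13 were higher in vivo than in untreated gliospheres and 0 lower. Dpp6, which accompanies A-type pores, was detected on all 9 arrays and was higher by 2.73 ± 0.31 (adjusted p = 0.000314). Abcc8 and Abcc9, the sulfonylurea receptors of ATP-sensitive potassium channels, and Cntnap2, which clusters potassium channels along axons, were detected on 0 untreated and 3 in vivo arrays and were at least 4.62-fold, 1.69-fold and 13.7-fold higher. Ank3 and Fgf13 did not pass (0.25 and 0.71). Of 17 tested channels of other families 6 were higher and 3 lower, the cation channels Hcn2 and Hcn3 of pacemaker currents among the higher (1.84 and 1.81) and Itpr2 and Orai1 of calcium stores among the lower (-2.11 and -1.45). Of 12 tested pumps and transporters 1, Atp2b2, was higher (3.56) and 1, Slc12a4, lower (-1.51), which is not above the shares over all probes. Among markers of the remaining cell types, passing in vivo against untreated were 1 higher and 1 lower of 6 fibroblast genes (Dcn, Lum), 1 higher and 1 lower of 2 genes of interstitial cells of Cajal (Ano1, Etv1), 1 lower of 4 endothelial and pericyte genes (Cspg4) and 0 of 2 macrophage and 0 of 3 epithelial genes.

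LPS was compared with no LPS in gliospheres to ask which channel genes respond to this stimulus in culture. Of 90 tested channel probes 4 passed, 1 higher and 3 lower (limma, adjusted p under 0.05), against 0.825% of all 14795 probes (0.662% higher, 0.162% lower). The median difference was -0.08 for channel probes and 0 over all probes. The only higher one was Kcnh1, with the values given above, detected on 0 untreated and 3 LPS arrays and at least 4.07-fold higher after LPS (adjusted p = 0.0199). By replicate number, the untreated values of 4.35, 3.48 and 4.11 stood beside 5.76, 7.3 and 7.31 after LPS. With the authors' normalized values the bound was 1.52-fold and the call was lost.

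The 3 lower probes were of Kcnd2, Kcnk6 and Kcnn2. Kcnk6 has 3 probes on the array, and Kcnn2 and Kcnh1 have 2 each. The further probes of these genes were detected on no array and were not tested. Kcnd2 was detected on 3 untreated and 0 LPS arrays and was at least 2.8-fold lower after LPS (adjusted p = 0.0286). Kcnk6, a background channel known from vascular muscle and macrophages, read 5.77, 5.84 and 5.82 untreated and 4.04, 4 and 4.18 after LPS, at least 1.98-fold lower (adjusted p = 0.0188). Kcnn2, the small-conductance calcium-activated channel of neurons, read 7.17, 6.97 and 6.07 untreated and 5.19, 4.83 and 4.43 after LPS, where it was detected on 1 array, a difference of -1.92 ± 0.34 (adjusted p = 0.0382). In all 4 probes the groups did not overlap, which also held for 19.2% of all probes tested. With the authors' normalized values the bounds were 1.29-fold for Kcnd2 and 1.17-fold for Kcnk6, and none of the 3 passed.

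These calls rest on few arrays. With the replicate number as a block in a fit of the 6 gliosphere arrays, Kcnk6 and Kcnn2 passed (adjusted p = 0.0477 for both) and Kcnd2 (0.0557) and Kcnh1 (0.113) did not. With the number as a block over all 9 arrays Kcnn2 alone passed (0.0322). Leaving out any single gliosphere array left 0 to 1 of these 4 past the threshold (Kcnh1 without LPS replicate 1 and Kcnn2 without untreated replicate 3), and Kcnn2 was also lost without in vivo replicate 2 or 3, with adjusted p up to 0.141 for Kcnd2, 0.107 for Kcnh1, 0.104 for Kcnk6 and 0.186 for Kcnn2. Of the marker lists, 2 of 6 fibroblast genes (Dcn and Lum) were higher after LPS and 0 of the 5 glial, 15 neuronal, 7 smooth muscle and 2 macrophage genes passed. The summed fibroblast signal was 3833 to 4856 untreated and 10720 to 15260 after LPS. The summed macrophage signal was 95.77 to 133.5 untreated and 186 to 584.9 after LPS, with Lyz2 at 2.22 (adjusted p = 0.5) and Ptprc and Itgam on no array. The part of either in the channel values was not tested. None of the 25 channel partners, 17 other channels and 12 pumps and transporters passed in this comparison.

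**Figure D5:**
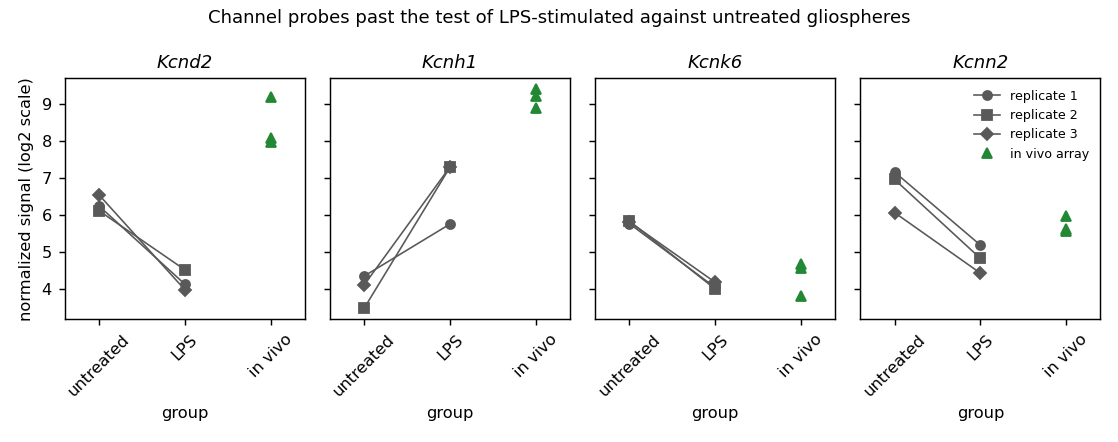
Normalized signal (log2 scale, vertical axis) of the 4 channel probes past the test between LPS-stimulated and untreated gliospheres. Grey symbols joined by a line are the gliosphere samples of 1 replicate number, and green triangles are the in vivo arrays, which have no such link. For each replicate number Kcnd2, Kcnk6 and Kcnn2 lie lower and Kcnh1 higher after LPS, and Kcnh1 and Kcnd2 are highest in vivo, at 8.91 to 9.41 and 7.98 to 9.2.

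Some other channel probes did not pass after LPS. A Kcnk5 probe read 8.44, 8.36 and 7.81 untreated and 6.75, 5.7 and 4.7 after LPS (-2.49, adjusted p = 0.0807). Another Kcnk5 probe detected on all untreated arrays differed by -1.41 (adjusted p = 0.152). Kcnv1, a silent subunit, differed by -1.6 (adjusted p = 0.235), and the Cacna1b probe seen on 2 LPS arrays only had an adjusted p of 0.0797. Kcnk5 and Kcnv1, like Kcnh2, Kcnh3, Kcnk4, Kcnrg, Kcns2 and Kcnu1, lie outside the rule for named genes and were chosen after their values were seen.

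The in vivo samples were also compared with LPS-stimulated gliospheres, using the same in vivo arrays as above. Of 90 tested channel probes 43 passed, 36 higher and 7 lower in vivo, against 28.4% of all probes (13.5% higher, 14.9% lower), with a median difference of 0.7 against -0.09. Kcnd2 was at least 12.1-fold higher in vivo than after LPS (adjusted p = 4.3e-05), and Scn2b at least 20-fold (adjusted p = 9.33e-06), or at least 2.95-fold and 4.17-fold with the authors' normalized values. Kcnk5 was higher on 2 of its 3 tested probes (2.62 and 2.19, adjusted p = 0.00555 and 0.00165), and so was Kcnv1 (2.17, adjusted p = 0.00647). Kcnn2, which was lower after LPS, differed by 0.9 without passing (adjusted p = 0.0743), and Kcnk6 was not well above background in either group. For Kcnh1 the in vivo mean was higher still, by 2.39 (adjusted p = 0.00353).

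Several genes carry more than 1 tested probe. Of 11 such genes 7 had the same call on all their probes between in vivo and untreated, and 4 (Kcnab1, Kcnh2, Kcnk4, Kcnrg) did not. The probe rule reads each probe on its own, and levels were not set against each other across probes.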

How the data were processed

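Myenteric glia were profiled on 9 Illumina bead arrays in 3 groups of 3. The deposited signal table holds intensity per probe as GenomeStudio (version not given in the sources used here) wrote it, neither background-corrected nor normalized. The authors deposited a detection p-value beside each signal. A second deposited table, the authors' normalized intensity on a linear scale, served as an alternative. Most cells of both tables had lost the decimal point (95.77 to 98.18% per array of the signal table). Points were restored from the rising relation of normalized value to signal, which settled all 25697 probes, and detection p-values were in the order of the restored signal on every array. On tables simulated under this rule 231273 of 231273 cells came back.

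Background was corrected by normexp, its background moments taken by way of the detection p-values (limma 3.58.1, R 4.3.3, offset 0), followed by VSN in code written here after the published model (7 of 231273 values moved by over 0.1 from a second start). Filtering removed the 1719 unnamed probes and those never reaching a detection p of 0.05 or less, and kept 14795 probes of 10796 genes. limma fitted the group means over all 9 arrays (6 residual and 3.11 prior degrees of freedom), with Benjamini-Hochberg adjustment over all probes, and each test uses the variance estimated from all 3 groups together. The fit was tested on simulated data with true log2 changes of 1, 2 and 3 between in vivo and untreated. It called 7.58, 50 and 72.7% of the changed probes, and 1 of 18590 unchanged probes. Only 66 tested probes of each size were changed among 18788, whereas 25% of probes passed in the data. The adjustment depends on that share, so these rates do not give the sensitivity of the in vivo test. A probe that did not pass may still differ. The number of arrays limits the precision.

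Each preparation was split between both gliosphere conditions, per the series design, but that equal replicate numbers mark 1 preparation was inferred. Gliosphere samples with equal numbers deviated from their group means with r of 0.16, 0.09 and 0.17, against -0.14 to -0.02 for unequal numbers. Whether in vivo samples come from the same litters is not stated in the sources used here. Normalized signals are log2 values per probe; ± gives standard errors.

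Genes were named through the platform annotation. Channel genes, marker lists (glia, neuron, smooth muscle, interstitial cell of Cajal, fibroblast, endothelium and pericyte, macrophage, epithelium) and the lists of partners, other channels and pumps were chosen with earlier results of these data known. Named are probes past the LPS test, the 10 highest and 10 lowest past the in vivo against untreated test without overlap, up to 3 per subfamily with the largest change, and a list of 42 genes. Alternatives were quantile normalization, the authors' values, no background correction, no or a stricter detection filter, only the groups compared, a replicate block, array weights, trended and robust eBayes, and leaving out each array.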

Additional observations from a re-analysis of the deposited data

How the results depend on the processing

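Between in vivo and untreated samples the number of channel probes past the test stayed at 33 to 48 when single arrays were left out and at 35 to 46 under the other alternatives, against 42, and 24 of the 42 passed under each of 18 alternatives. Without in vivo replicate 1, which correlates least with its group, 48 passed. Between in vivo and LPS samples the count ranged from 35 to 50 over the alternatives, against 43. Over all probes the in vivo against untreated count with single arrays left out was 2365 to 4657 against 3703. Between LPS-stimulated and untreated gliospheres 1 channel probe passed with the authors' normalized values, 12 with array weights, 1 with the replicate block over all 9 arrays, 2 with the replicate block over only the 6 gliosphere arrays, and 0 to 8 with single arrays left out, against 4. None of these 4 passed under every alternative. The single call with the authors' values was not one of the 4. Over all probes this comparison gave 209 calls with only the 2 groups compared, 423 with array weights and 39 to 213 with single arrays left out, against 122. The causes were not tested. Of 3038 values of named probes under alternatives, 0 changed sign where either value passed the test, 112 lost and 40 gained the threshold, and 68 changed sign without passing in either.

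Signals near background limit what can be said, since 74 of 164 channel probes were detected on no array. The lower bounds of folds moved with the normalization, most with the authors' normalized values. For Kcna5 in vivo against untreated the bound was 12.5-fold, 10.3-fold with quantile normalization, 6.9-fold without background correction and 2.83-fold with the authors' values. Differences given with a standard error moved too where a group lay near background. Over the alternatives in vivo against untreated, Kcnk13 ran from -4.07 to -1.83, Kcnj3 from -2.26 to -0.52 and Scn7a from 0.74 to 3.63. Cacnb4 ran from 0.46 to 1.52, and Kcnn2 after LPS from -2.25 to -0.55. The ± values do not cover this dependence.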
